A study of Mus musculus with 13 samples.

Results

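The levels of 9 genes of the presynaptic terminal were compared between mouse medulloblastomas. They were chosen by symbol among the 53653 genes of the count table, and all 9 had a row and passed the filter on low counts. They were Syp, Syn1 and Syt1 of the synaptic vesicle, Snap25, Stx1a and Vamp2 of the fusion machinery, Rims1 of the active zone, Dnm1 of vesicle retrieval and Sncb, a synuclein. A synaptic vesicle is loaded with transmitter, docked at the active zone and fused with the plasma membrane when 3 SNARE proteins (syntaxin 1, SNAP-25 and VAMP2) zip together and synaptotagmin 1 senses calcium. Its membrane is then retrieved by endocytosis, in which dynamins cut the vesicle free. In the cerebellum, granule cell precursors divide while Sonic Hedgehog signalling is on, and genes of the nerve terminal rise when these cells leave the cell cycle and become granule neurons.

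The libraries came from mouse medulloblastomas with SmoM2 overexpression, a form of Smoothened that keeps Sonic Hedgehog signalling on and that all 3 groups carried. Control primary tumours (n = 5, replicates 3 to 7, mice of 6 to 16 weeks) had SmoM2 alone. KO primary tumours (n = 4, replicates 3, 4, 6 and 7) and KO metastases of the spinal cord (n = 4, with those replicate numbers too) had SmoM2 and a Kmt2d knockout (SmoM2-Kmt2dCf/Cf, 5 to 8 weeks). KMT2D is a histone H3 lysine 4 methyltransferase. Cells positive for GFP were sorted from all tumours, and the primary samples are labelled as granule cell precursors and the others as spinal metastasis. No source used here gives the promoter that drove recombination or says which libraries shared a mouse, so p-values describe only how far the deposited libraries spread. The controls were in part older than the knockout mice. Control primary 5, 6 and 7 had 324 to 509.5 CPM of Xist, the RNA of the silenced X chromosome, whereas the other 10 libraries had no more than 1.02 CPM.

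Total counts ran from 23.5 to 41.4 M per library, of which 9886 to 31819 counts fell on the 9 genes. Levels are given as TMM-scaled CPM, that is, a gene's count scaled to a common library total, and a gene was called when its edgeR p, adjusted over 22265 tested genes, was below 0.05. Atoh1, the factor that defines granule cell precursors, was present in every library (309 to 425 CPM in controls, 590 to 787 CPM in KO primary tumours, 371 to 861 CPM in metastases). Kmt2d itself was not called (125 ± 36.7, 116 ± 35.7 and 115 ± 11.2 CPM, SD), and because no source used here names the exons removed, its whole-gene count does not check the genotype. Receptor genes of the olfactory and vomeronasal families, which serve as a measure of background, were above 100 CPM in control primary 3, KO primary 7, KO metastasis 6 and KO metastasis 7 (349 to 1752 CPM). Mitochondrial genes took 2.06% of counts in KO metastasis 3 and 0.633 to 0.876% in the other libraries.

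Sequence just before the start of transcription was available for 7 of the 9 genes (RefSeq, GRCm38.p6; Snap25 and Vamp2 had no entry). Of these, 4 are shown, the pair of genes that fell most (Dnm1 and Sncb) beside a pair that was not called (Syn1 and Stx1a), each trimmed of annotated exon and written 5′ to 3′ in the direction of the gene. They cover chr2:32353339-32353579 (minus strand, 241 bases) for Dnm1, chr13:54766596-54766845 (minus, 250 bases) for Sncb, chrX:20921005-20921168 (minus, 164 bases) for Syn1 and chr5:135023232-135023481 (plus, 250 bases) for Stx1a. Capitals mark matches to the motifs named after the sequences.
Dnm1: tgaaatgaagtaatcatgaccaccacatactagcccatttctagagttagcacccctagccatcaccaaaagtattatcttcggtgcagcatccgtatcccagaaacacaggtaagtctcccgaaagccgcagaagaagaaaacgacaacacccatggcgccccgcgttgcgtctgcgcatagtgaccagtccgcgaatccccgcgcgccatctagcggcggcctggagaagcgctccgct
Sncb: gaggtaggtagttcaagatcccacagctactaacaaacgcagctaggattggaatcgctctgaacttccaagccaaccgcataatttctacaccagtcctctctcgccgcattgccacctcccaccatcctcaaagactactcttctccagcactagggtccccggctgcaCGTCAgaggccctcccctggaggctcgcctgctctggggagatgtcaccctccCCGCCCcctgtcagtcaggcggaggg
Syn1: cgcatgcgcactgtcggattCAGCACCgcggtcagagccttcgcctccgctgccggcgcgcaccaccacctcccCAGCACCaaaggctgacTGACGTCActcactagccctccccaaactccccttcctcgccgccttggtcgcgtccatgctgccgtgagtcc
Stx1a: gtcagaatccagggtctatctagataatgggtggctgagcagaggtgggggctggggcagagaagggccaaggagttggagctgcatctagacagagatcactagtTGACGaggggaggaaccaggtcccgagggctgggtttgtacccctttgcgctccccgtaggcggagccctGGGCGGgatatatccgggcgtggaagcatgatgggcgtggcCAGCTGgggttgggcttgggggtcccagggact

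The motifs searched on both strands of the 250 bases before each start were the cAMP element TGACGTCA and its core TGACG, the GC box GGGCGG, the E boxes CAGATG and CAGCTG, the left arm CAGCACC and the right arm GGACAG of the RE1 element, and the whole RE1 element, the site of the neuronal gene repressor REST. Dnm1 held none of them. Sncb held a core TGACG from -79 to -75 and a GC box from -26 to -21, both on the opposite strand. Syn1 held the left RE1 arm at -230 to -224 and at -176 to -170 and a whole cAMP element at -159 to -152, which contains the core on both strands. Stx1a held the core at -144 to -140, a GC box at -74 to -69 and CAGCTG at -33 to -28. Across all 32851 promoters of the table, 5.73% held the left RE1 arm, 18.7% the right arm, 0.0335% the whole RE1 element, 1.55% the cAMP element, 17.8% its core, 32.7% the GC box, 14.4% CAGATG and 13% CAGCTG. Among the promoters not shown, the GC box was found in those of Syp and Rims1. Syt1 had 2 promoters in the table, of which the upstream one held the GC box and the right RE1 arm and the other held CAGCTG. None of the promoters of these 7 genes held the whole RE1 element or CAGATG. Positions count back from the RefSeq start, and a match is a description of these letters only.

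The first comparison asked how primary tumours with and without Kmt2d differ. In KO primary tumours Dnm1 fell 15.8-fold and Sncb 14.4-fold, Syp and Snap25 fell 2.69-fold and 2.37-fold, and the other 5 genes were not called. All KO primary libraries lay below all controls for these 4 genes and for Vamp2. A share of 1.78% of all tested genes was called lower (1.15% higher), and 3.85% lay wholly below the controls. Among the 9 genes 4 were called lower and 5 separated. These 9 were chosen with earlier results of these data known, so their larger shares are a description and not independent support. These are sorted bulk samples, in which fewer cells of a neuronal state and less RNA per cell cannot be told apart.

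**Figure D1:**
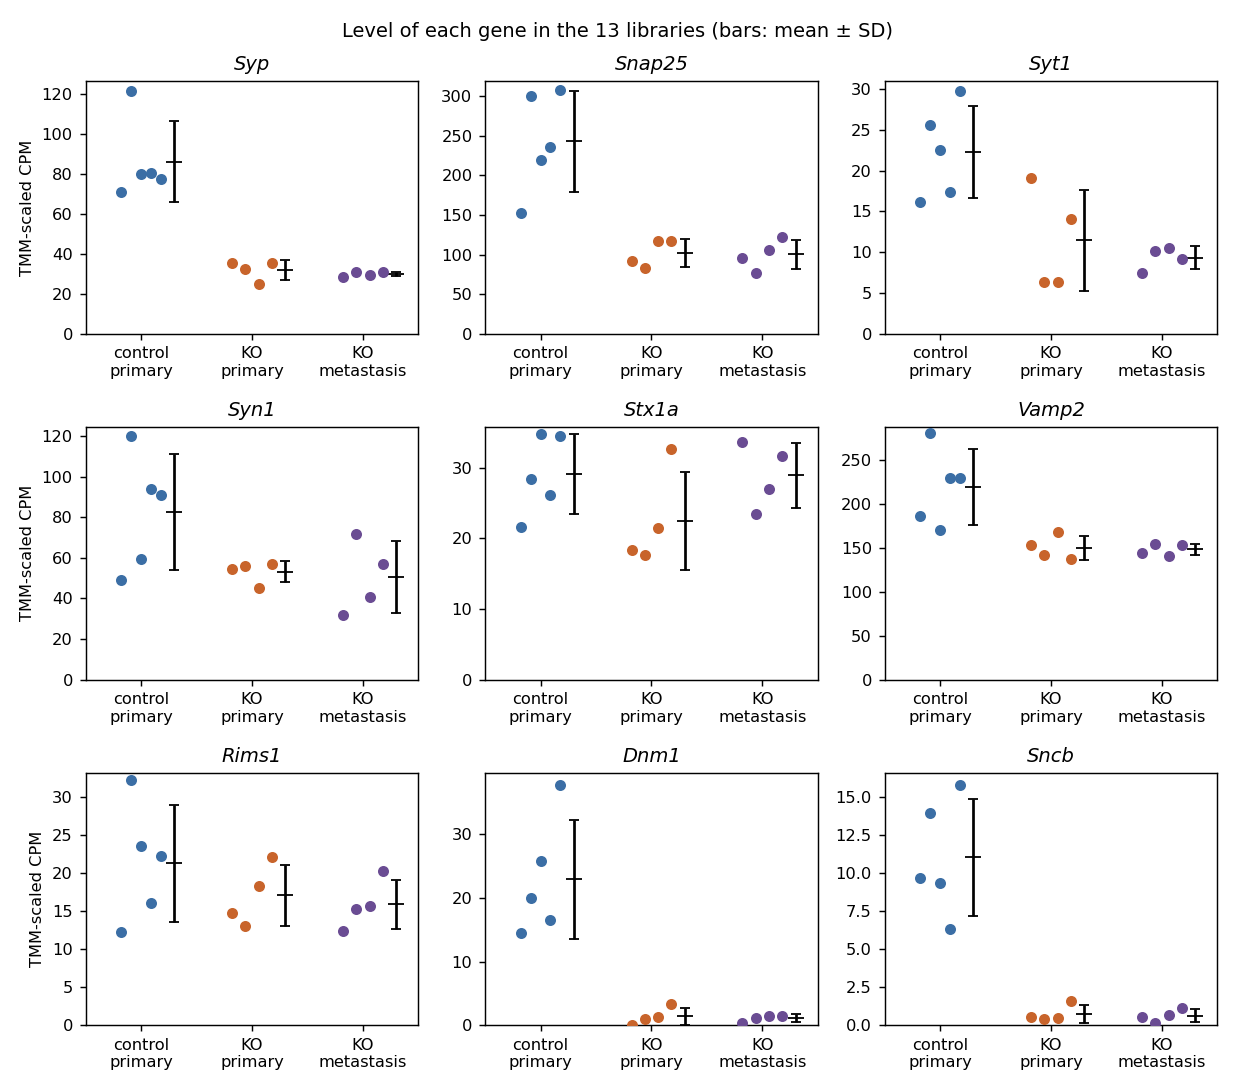
TMM-scaled CPM (vertical axis, linear, from 0) of each of the 9 genes in control primary (blue, n = 5), KO primary (orange, n = 4) and KO metastasis (purple, n = 4) libraries; points are libraries and bars are mean ± SD. Dnm1 and Sncb sit near the axis in both knockout groups, Syp and Snap25 stand below every control, and Stx1a and Rims1 overlap between all groups.

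Syp encodes synaptophysin, an abundant membrane protein of the synaptic vesicle (GRCm38 chromosome X, 7638471 to 7653256). It measured 70.7, 121, 80.0, 80.3 and 77.5 CPM in the controls (replicates 3 to 7) against 35.4, 32.5, 24.8 and 35.4 CPM in KO primary tumours (replicates 3, 4, 6 and 7). Every control stood above every KO primary library, with a wide gap between the groups and control primary 4 far above the other controls. The log2 change was -1.43 (SE 0.170, edgeR adjusted p = 6.33e-04). An antisense gene, Gm14703, covers 875 bases (16.8%) of the Syp exons, and no source used here gives the strand setting of the counting. Syp is X-linked, and the 3 controls with Xist counts lay between the other 2. Without those 3 controls the log2 change was -1.57 (edgeR adjusted p = 0.0279).

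Syn1, which encodes synapsin 1, a protein that tethers vesicles in the reserve pool (chromosome X, 20860511 to 20921004), was at 49.0, 120.1, 59.6, 94.0 and 90.9 CPM in the controls. KO primary libraries were at 54.6, 56.0, 45.3 and 56.9 CPM. The controls were spread over a broad range that enclosed most KO primary libraries, and the log2 change of -0.64 (SE 0.270, 95% interval -1.22 to -0.06, edgeR adjusted p = 0.298) was not called. Syt1, the calcium sensor synaptotagmin 1 (chromosome 10, 108497650 to 109010982), was at 16.2, 25.6, 22.5, 17.4 and 29.7 CPM in the controls and at 19.1, 6.37, 6.32 and 14.0 CPM in KO primary 3, 4, 6 and 7. KO primary 3 reached into the control range and the other 3 lay below it. Its log2 change of -0.96 (SE 0.322, edgeR adjusted p = 0.153) was not called.

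Among the SNAREs, Snap25 encodes the plasma membrane protein SNAP-25 that pairs with syntaxin 1 (chromosome 2, 136713453 to 136782428). Its levels were 152, 300.3, 219.9, 236 and 307 CPM in control primary 3 to 7 and 91.9, 83.1, 117 and 117 CPM in KO primary libraries. The groups did not overlap, and control primary 3, a library of high background, was the lowest control. The log2 change was -1.25 (SE 0.210, edgeR adjusted p = 0.00505). Without the 3 controls that carry Xist counts it was -1.13 and no longer called (edgeR adjusted p = 0.201).

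Vamp2, the vesicle SNARE synaptobrevin 2 (chromosome 11, 69088490 to 69092384), was at 186, 281, 170.4, 229.8 and 229.0 CPM in the controls and at 154, 141, 168 and 138 CPM in KO primary libraries. All KO primary libraries lay below the controls, though KO primary 6 came within a few CPM of control primary 5. The log2 change of -0.55 (SE 0.141, edgeR adjusted p = 0.0564) was not called. Stx1a, the plasma membrane SNARE syntaxin 1A (chromosome 5, 135023482 to 135051100), ranged from 21.7 to 34.9 CPM in controls and from 17.6 to 32.6 CPM in KO primary libraries. These ranges overlapped, and the log2 change of -0.37 (SE 0.209, edgeR adjusted p = 0.507) had a 95% interval of -0.82 to 0.08. Rims1, the active zone scaffold RIM1 that ties vesicles to calcium channels (chromosome 1, 22286251 to 22805994), was at 12.2 to 32.2 CPM in controls and 13.03 to 22.2 CPM in KO primary libraries. Its log2 change of -0.32 (SE 0.263, 95% interval -0.88 to 0.25, edgeR adjusted p = 0.751) was not called.

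Dnm1 encodes dynamin 1, the GTPase of nerve terminals that cuts endocytic vesicles from the membrane (chromosome 2, 32308471 to 32353338). It had 382, 673, 680, 512 and 1405 counts in control primary 3 to 7, which is 14.5, 19.9, 25.8, 16.5 and 37.8 CPM. KO primary 3, 4, 6 and 7 had 4, 37, 51 and 123 counts, which is 0.104, 1.01, 1.35 and 3.33 CPM. Each control exceeded each KO primary library several-fold, and the KO primary libraries differed widely among themselves, with KO primary 7, a library of high background, the highest. The log2 change was -3.98 (SE 0.707, edgeR adjusted p = 0.00727). It was -4.91 (edgeR adjusted p = 0.00245) without the high-background libraries and -3.58 (edgeR adjusted p = 0.121, not called) without the controls that carry Xist counts.

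Sncb encodes beta-synuclein, a small protein of presynaptic terminals (chromosome 13, 54758860 to 54766595). It had 255, 471, 246, 196 and 587 counts in control primary 3 to 7 (9.70, 14.0, 9.35, 6.31 and 15.8 CPM). KO primary 3, 4, 6 and 7 had 20, 15, 19 and 60 counts (0.521, 0.408, 0.502 and 1.63 CPM). In this group 3 libraries lay close together and KO primary 7 stood above them, still well below the lowest control. The log2 change was -3.84 (SE 0.597, edgeR adjusted p = 0.00304). It was -4.55 (edgeR adjusted p = 8.00e-04) without the high-background libraries and -3.95 (edgeR adjusted p = 0.0425) without the controls that carry Xist counts.

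The second comparison set spinal metastases against primary tumours of the same genotype. None of the 9 genes was called, and none had an unadjusted p below 0.05 (lowest 0.122, for Stx1a). Of all 22265 tested genes 1 was called (0.00449%), and 720 had an unadjusted p below 0.05. That gene was Mbp, the myelin basic protein of oligodendrocytes (log2 change 2.47, edgeR adjusted p = 0.0485), named here after its value was seen. No gene of the 9 separated these groups, where 1.72% of all tested genes did in either direction. DESeq2 called 34 genes in this comparison, none of them among the 9.

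Metastases were close to KO primary tumours for most genes, within intervals that differ in width. Syp was at 28.6, 31.0, 29.3 and 30.9 CPM in KO metastasis 3, 4, 6 and 7, a narrow band that lay inside the range of KO primary libraries. The log2 change against KO primary was -0.10 (95% interval -0.47 to 0.28). Snap25 was at 96.0, 77.2, 105.4 and 122 CPM (log2 change -0.03, 95% interval -0.50 to 0.43). Vamp2 was at 144, 155, 141 and 153 CPM, also a narrow band, with a log2 change of -0.02 (95% interval -0.34 to 0.30). For these 3 genes the intervals did not reach a 2-fold change in either direction.

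Dnm1 had 10, 44, 44 and 54 counts in KO metastasis 3, 4, 6 and 7 (0.359, 1.17, 1.55 and 1.55 CPM), and Sncb had 16, 5, 19 and 40 counts (0.575, 0.133, 0.667 and 1.15 CPM). Both lay far below every control. All 4 Dnm1 values fell within the range of KO primary libraries, and so did those of Sncb except in KO metastasis 4, which was lower. Against KO primary the log2 changes were -0.32 (95% interval -1.76 to 1.13) and -0.28 (95% interval -1.51 to 0.96), intervals that reach past a 2-fold change on either side. Stx1a had the largest estimate above 0 at 0.36 (95% interval -0.11 to 0.83, 28.9 ± 4.62 against 22.5 ± 6.94 CPM, SD, n = 4 each, edgeR adjusted p = 0.9997). The estimates were -0.29 for Syt1 (95% interval -1.01 to 0.43), -0.08 for Syn1 (95% interval -0.68 to 0.53) and -0.10 for Rims1 (95% interval -0.70 to 0.49).

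Metastases were also compared with control primary tumours, a comparison that shares the 5 controls with the first, so both are given side by side and not as independent results. There 5 genes were called lower, Syp (log2 change -1.52, edgeR adjusted p = 4.08e-04), Snap25 (-1.28, 0.00446), Dnm1 (-4.30, 0.00508), Sncb (-4.12, 0.00245) and Vamp2 (-0.56, 0.0462). Of all tested genes 2.02% were called lower and 1.06% higher, and 4.01% lay wholly below the controls. In all, 6 of the 9 genes did so here, the 5 called and Syt1 (9.34 ± 1.37 against 22.3 ± 5.66 CPM, log2 change -1.25, edgeR adjusted p = 0.0546). Vamp2 kept its call without control primary 3 and lost it without any other single library (8 of 9 fits, edgeR adjusted p up to 0.213), and Snap25 and Dnm1 were not called without the controls that carry Xist counts. In that fit, with 2 controls left, their log2 changes were -1.14 and -3.83 (edgeR adjusted p = 0.209 and 0.104). Stx1a, at 28.9 ± 4.62 CPM in metastases and 29.1 ± 5.62 CPM in controls, had a log2 change of -0.01 (95% interval -0.46 to 0.44, edgeR adjusted p = 0.994). Its sign turned with the scaling, to 0.02 with upper quartile scaling. Syn1 (-0.72, edgeR adjusted p = 0.220) and Rims1 (-0.42, edgeR adjusted p = 0.563) were not called.

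**Figure D2:**
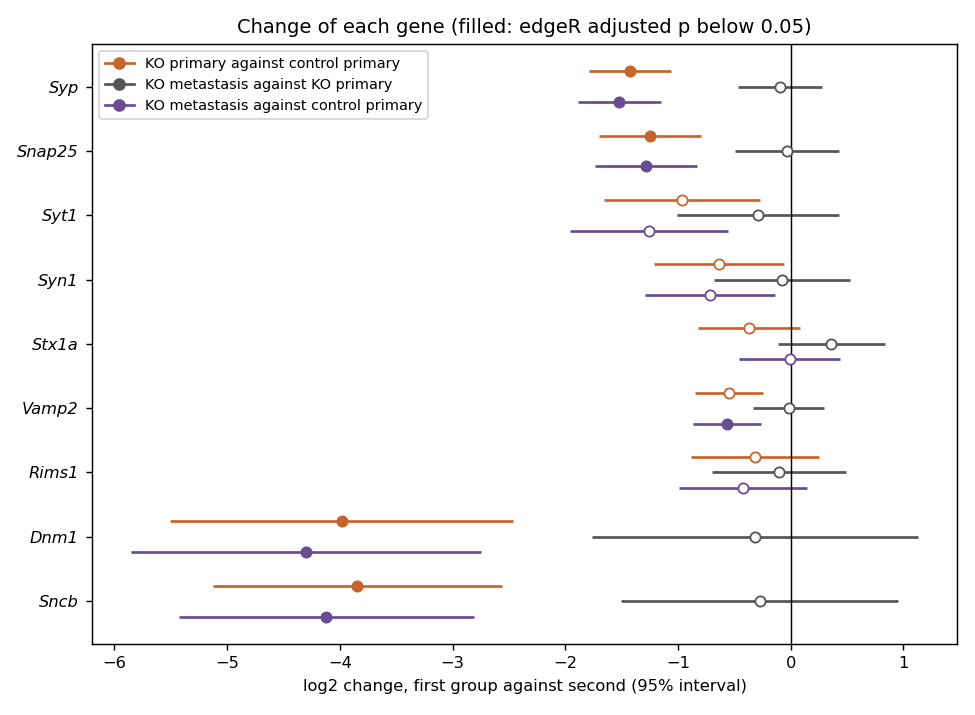
Log2 change of each gene (horizontal axis) in the 3 comparisons with its 95% interval; filled points have an edgeR adjusted p below 0.05 and open points do not. Dnm1 and Sncb lie near -4 against controls, Syp and Snap25 between -1 and -2, and all metastasis against KO primary intervals cross 0.

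Levels between genes were compared per kilobase of merged exons, a length that counts every annotated isoform. In control primary tumours the order of CPM per kb was Vamp2 (57.6 ± 11.3), Snap25 (35.8 ± 9.38), Syn1 (25.1 ± 8.66), Syp (16.5 ± 3.88), Stx1a (10.9 ± 2.11), Sncb (5.14 ± 1.78), Dnm1 (4.37 ± 1.79), Rims1 (2.89 ± 1.04) and Syt1 (2.67 ± 0.679). Of these neighbours only Vamp2 and Snap25, and Stx1a and Sncb, were further apart than their SDs reached. In KO primary tumours the order was Vamp2 (39.4 ± 3.56), Syn1 (16.1 ± 1.63), Snap25 (15.1 ± 2.60), Stx1a (8.45 ± 2.60), Syp (6.15 ± 0.957), Rims1 (2.32 ± 0.548), Syt1 (1.37 ± 0.748), Sncb (0.356 ± 0.269) and Dnm1 (0.276 ± 0.259). Here the SDs of neighbours left gaps between Vamp2 and Syn1, between Snap25 and Stx1a and between Syp and Rims1. By their means Sncb and Dnm1 stood above Rims1 and Syt1 in controls and in the lowest 2 places in KO primary tumours. In KO metastases the order of means matched that of KO primary tumours, with Vamp2 (38.9 ± 1.75), Syn1 (15.3 ± 5.37), Snap25 (14.7 ± 2.75), Stx1a (10.9 ± 1.73), Syp (5.75 ± 0.223), Rims1 (2.16 ± 0.438), Syt1 (1.12 ± 0.164), Sncb (0.294 ± 0.195) and Dnm1 (0.220 ± 0.107).

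Each of the 9 genes belongs to a family whose other members serve other cells or other membranes, so its share of the family's counts was read within each library, a measure that scaling between libraries does not touch. With 5 against 4 libraries the exact permutation test (2-sided) can give no p below 0.0159, and p-values were adjusted over the 9 genes. In KO primary tumours the share fell for 4 genes. Dnm1 went from 15.4 ± 4.41% to 1.23 ± 1.10% of dynamin counts (exact permutation adjusted p = 0.0357), while Dnm2, the dynamin of all tissues, was at 109 ± 18.0 and 113 ± 9.86 CPM (edgeR adjusted p = 0.973). Dnm3 was at 13.6 ± 5.74 and 3.77 ± 2.02 CPM, a log2 change of -1.85 that was not called (edgeR adjusted p = 0.0770). Sncb went from 33.9 ± 6.33% to 5.34 ± 3.53% of synuclein counts (exact permutation adjusted p = 0.0357).

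Syp went from 26.1 ± 1.15% to 14.6 ± 1.27% of the counts of the synaptophysin and synaptogyrin family (exact permutation adjusted p = 0.0357). In that family Syngr2, the synaptogyrin of non-neuronal cells, rose from 12.2 ± 3.19 to 26.5 ± 9.003 CPM (log2 change 1.12, edgeR adjusted p = 0.0227). Synpr, a second neuronal member, had a log2 change of -1.36 with a wide error (SE 0.424, edgeR adjusted p = 0.122). Vamp2 went from 63.1 ± 3.67% to 49.5 ± 2.52% of VAMP counts (exact permutation adjusted p = 0.0357), a drop in the share of a gene whose own level was not called. Vamp3 and Vamp4, of the general endosomal route, had log2 changes of 0.49 and 0.24 that were not called. Vamp7 was not analysed here.

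For Snap25 the share was 58.4 ± 8.22% in controls and 37.7 ± 6.26% in KO primary tumours (exact permutation adjusted p = 0.0571). KO primary 7 overlapped control primary 3, both of high background, in that share. Shares of Stx1a (26.1 ± 4.04% and 19.0 ± 5.21%, exact permutation adjusted p = 0.0816), Syt1 (2.99 ± 0.694% and 1.71 ± 0.815%, 0.0714), Syn1 (52.9 ± 5.26% and 59.6 ± 4.18%, 0.125) and Rims1 (16.1 ± 3.61% and 15.3 ± 2.56%, 0.683) were not called. Among syntaxins, Stx4a of the general plasma membrane rose to 57.7 ± 6.60 CPM from 28.6 ± 10.7 CPM (edgeR adjusted p = 0.0204), while Stx2 fell from 12.9 ± 1.64 to 7.30 ± 0.616 CPM (edgeR adjusted p = 0.0352). Synaptotagmins moved both ways: Syt3 fell from 14.3 ± 2.64 to 3.86 ± 1.44 CPM and Syt11 from 454 ± 91.6 to 264 ± 37.9 CPM (edgeR adjusted p = 0.00180 and 0.0164). Syt13 rose to 290.4 ± 16.3 CPM from 156 ± 34.9 CPM, and Syt16 to 17.8 ± 4.56 CPM from 6.92 ± 0.658 CPM (edgeR adjusted p = 0.0407 and 0.0104). In all, 4 of the 41 tested paralogs outside the 9 genes rose in KO primary tumours and 5 fell, against 2 and 4 in metastases compared with controls and none between metastases and KO primary tumours. Over all tested genes 1.15% were called higher and 1.78% lower in KO primary tumours, and 1.06% and 2.02% in metastases against controls.

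In metastases against controls 6 shares fell, those of Syp (14.4 ± 1.37%), Snap25 (40.4 ± 6.29%), Syt1 (1.32 ± 0.301%), Vamp2 (51.0 ± 3.42%), Dnm1 (1.08 ± 0.460%) and Sncb (3.80 ± 2.20%), at an exact permutation adjusted p of 0.0476 for Snap25 and 0.0286 for the others. Between metastases and KO primary tumours no share was called (lowest exact permutation adjusted p = 0.771, for Stx1a at 25.9 ± 3.42% against 19.0 ± 5.21%). The shares kept their direction in all 4 genes called in KO primary tumours when any 1 library was left out, but groups of 4 against 4 or 5 against 3 left no exact permutation adjusted p below 0.0514.

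**Figure D3:**
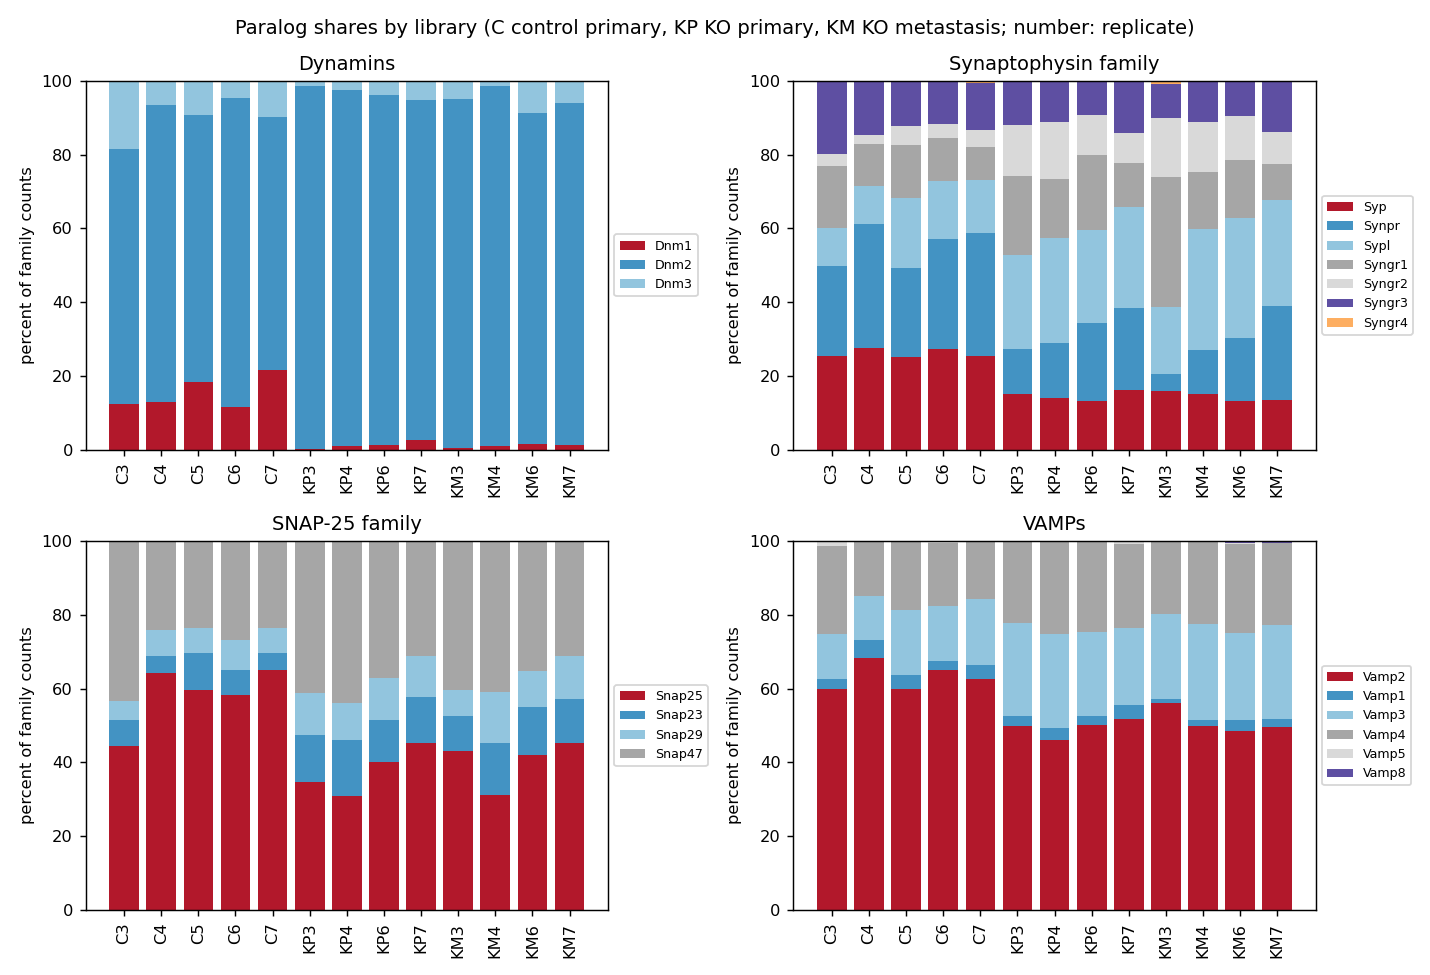
Percent of family counts (vertical axis, 0 to 100) taken by each paralog in each library for dynamins, the synaptophysin family, the SNAP-25 family and VAMPs; C, KP and KM are control primary, KO primary and KO metastasis and the number is the replicate. The red segment of Dnm1 shrinks to a thin base in all 8 knockout libraries, and those of Syp, Snap25 and Vamp2 are shorter on average than in controls.

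Tubb3, the tubulin of young neurons, was used as a within-library reference for how each gene moved beside a general neuronal gene; it was chosen with its own fall in KO primary tumours known (633 ± 167 to 195 ± 43.1 CPM). Relative to Tubb3, Dnm1 and Sncb were still lower in KO primary tumours, by -2.98 and -2.32 on the log2 scale (exact permutation adjusted p = 0.0286 each). Syn1, Vamp2, Stx1a and Rims1 were higher relative to Tubb3, by 1.11, 1.15, 1.28 and 1.405 (exact permutation adjusted p = 0.0286, and 0.0476 for Stx1a). Their own log2 changes were -0.64, -0.55, -0.37 and -0.32, so a higher ratio here means a smaller fall than that of Tubb3 and not a rise. The ratios of Syp (0.26), Snap25 (0.45) and Syt1 (0.58) were not called (exact permutation adjusted p = 0.476, 0.163 and 0.268). KO primary libraries lay wholly apart from controls in these ratios for Syn1, Vamp2, Rims1, Dnm1 and Sncb, and overlapped them for the other 4.

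Relative to Tubb3 no gene was called in metastases against controls. Dnm1 and Sncb had ratios of -3.41 and -3.37 with every metastasis below every control, and an exact permutation adjusted p of 0.0714. Between metastases and KO primary tumours, Snap25, Vamp2 and Rims1 lay lower relative to Tubb3 in every metastasis (-0.72, -0.70 and -0.78), also without a call (exact permutation adjusted p = 0.0857). Tubb3 itself was at 315 ± 83.2 CPM in metastases and 195 ± 43.1 CPM in KO primary tumours (log2 change 0.69, not called). The own log2 changes of Snap25, Vamp2 and Rims1 were -0.03, -0.02 and -0.10, so these lower ratios go with a higher Tubb3 and not with a fall of the 3 genes.

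**Figure D4:**
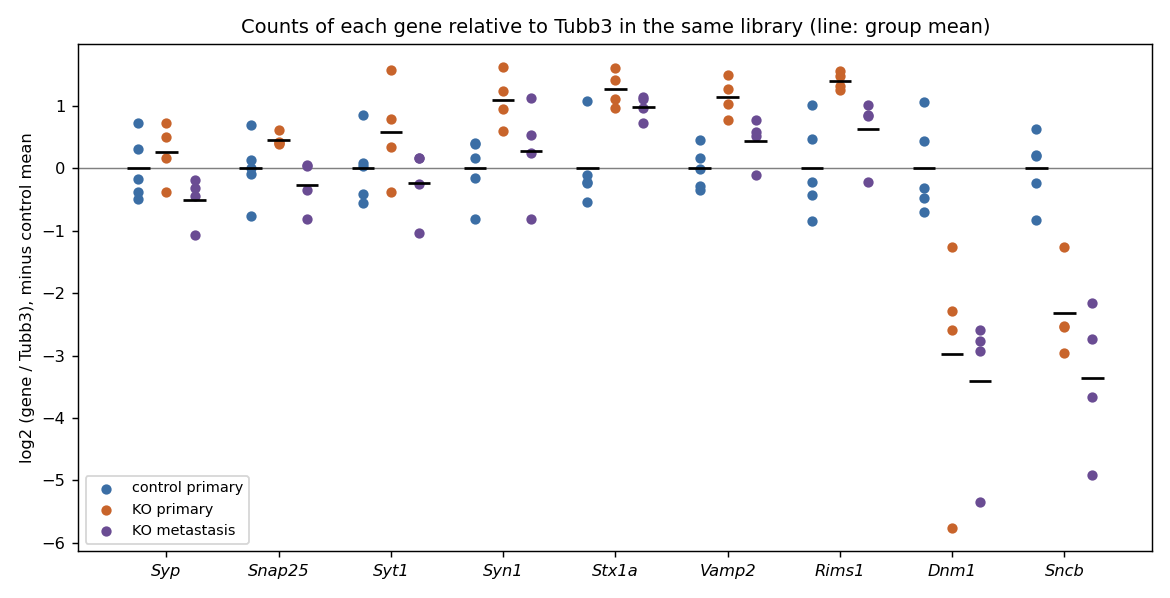
Log2 ratio of each gene's count to the Tubb3 count of the same library, with the control mean set to 0 (vertical axis); points are libraries and lines are group means. Dnm1 and Sncb of both knockout groups lie below all controls, while Syn1, Vamp2 and Rims1 of KO primary libraries lie above all controls.

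The wider presynaptic lists were described by counts of called genes and by the median log2 change of the genes tested, beside a median of -0.05 over all genes in KO primary against control primary tumours. In that comparison 1.78% of all tested genes were called lower and 1.15% higher. The lists were chosen with earlier results of these data known, so their counts are a description. Of 30 vesicle membrane genes 7 fell and 1 (Syngr2) rose, with a median of -0.88. Those that fell include Rab3a, the small GTPase of vesicle docking (129 ± 25.5 to 31.7 ± 8.499 CPM, edgeR adjusted p = 5.63e-04), Rab3d (54.6 ± 12.8 to 21.1 ± 1.24 CPM), Sv2a, a vesicle glycoprotein (25.9 ± 9.49 to 3.37 ± 0.865 CPM), and Syn2, the second synapsin (65.5 ± 20.2 to 32.5 ± 3.70 CPM). Syp, Syt3 and Syt11 make up the 7. Of 13 vesicle filling genes 1 fell, Slc18a3, the vesicular acetylcholine transporter (16.3 ± 9.85 to 0.509 ± 0.463 CPM, edgeR adjusted p = 0.0357), with a list median of -0.66.

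Of 29 SNAREs and fusion factors 5 fell and 2 rose, with a median of -0.35. Stxbp5l, a tomosyn, fell from 45.7 ± 19.5 to 15.7 ± 4.40 CPM. Napb, a SNAP adaptor of SNARE recycling, fell from 28.4 ± 8.72 to 14.7 ± 2.63 CPM. Snap25 and Stx2 were among the 5. The risers were Stx4a and Cplx2, a complexin that clamps SNARE complexes, which went from 47.6 ± 1.61 to 130.7 ± 40.3 CPM (log2 change 1.46, edgeR adjusted p = 0.0389) and is named in this comparison after its value was seen.

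Of 23 active zone genes 4 fell and none rose, with a median of -0.49. These were Pclo, the scaffold piccolo (60.4 ± 16.2 to 20.4 ± 2.99 CPM, edgeR adjusted p = 0.00180), Unc13a, the priming factor Munc13-1 (70.5 ± 6.92 to 40.0 ± 9.40 CPM), Cadps, a factor of dense-core vesicle release (101.2 ± 20.9 to 55.3 ± 9.52 CPM), and Apba1, an adaptor (15.7 ± 3.33 to 7.65 ± 0.836 CPM). Of 33 endocytosis genes 3 fell and the median was 0.04, close to that of all genes. Besides Dnm1 these were Pacsin1, the neuronal syndapin that binds dynamin (32.3 ± 2.42 to 3.92 ± 1.14 CPM, log2 change -3.04, edgeR adjusted p = 1.52e-04), and Bin1, an amphiphysin (299.7 ± 52.5 to 173 ± 17.4 CPM). Of 7 tested synucleins and partners 2 fell, Sncb among them, and none rose, with a median of -0.15.

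In metastases against controls, where 2.02% of all tested genes were called lower and 1.06% higher, the same lists were counted. The counts were 7 lower and 1 higher for vesicle membrane genes, 1 lower for filling, 7 lower and 1 higher for SNAREs and fusion factors, 3 lower for the active zone, 4 lower for endocytosis and 1 lower (Sncb) for synucleins. Syngr3, a neuronal synaptogyrin (log2 change -1.01, edgeR adjusted p = 0.0376), Doc2a, a calcium sensor (-1.15, 0.0236), and Amph, amphiphysin (-0.70, 0.0308), were called there. None of the genes in these lists was called between metastases and KO primary tumours.

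**Figure D5:**
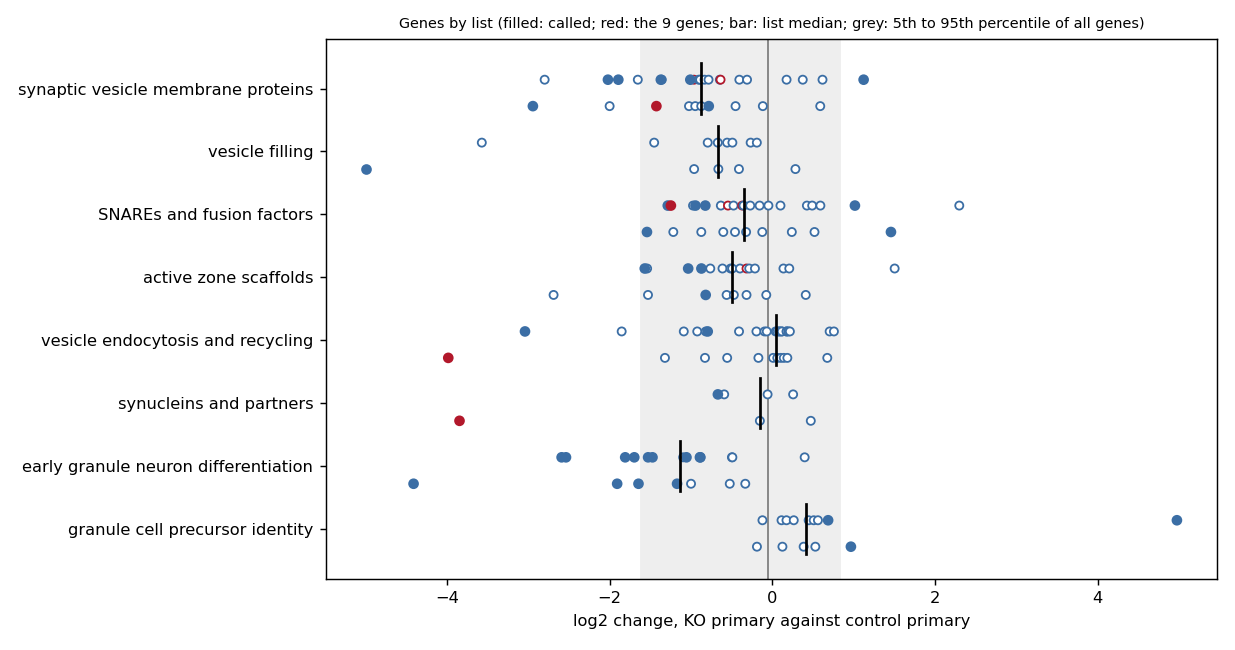
Log2 change in KO primary against control primary tumours (horizontal axis) of the genes in each list; filled points were called, red points are the 9 genes, bars are list medians and the grey band spans the 5th to the 95th percentile of all tested genes. The vesicle membrane and early granule neuron lists have medians of -0.88 and -1.13, and the endocytosis median lies at 0.04 with Dnm1 and Pacsin1 far to the left.

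Genes of early granule neuron differentiation fell beside the presynaptic genes: 13 of 20 fell in KO primary tumours and none rose (median -1.13), among them Elavl4, Tubb3, Neurod1, Chgb, Stmn2 and Cntn1. Of 14 genes of granule cell precursor identity 3 rose, Atoh1 and Ccnd1 among them, and none fell (median 0.42). In metastases against controls the counts were 10 of 20 lower and 4 of 14 higher. Of all tested genes 1.78% were called lower and 1.15% higher in KO primary tumours, and 2.02% and 1.06% in metastases against controls. Both lists were chosen with earlier results of these data known.

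Markers of other cell types moved in part with the groups, and the part of these cells in the presynaptic results was not tested. The summed level of 9 oligodendrocyte markers was 145 to 403 CPM in controls, 69.2 to 99.4 CPM in KO primary tumours and 172 to 1928 CPM in metastases. All 9 were tested. Opalin, listed at 0 in every KO primary library, was called lower there, and Mbp and Mobp were called higher in metastases against controls. The 7 markers of oligodendrocyte precursors summed to 268 to 612, 264 to 547 and 206 to 360.3 CPM, with none called in KO primary tumours and 3 lower in metastases (Pdgfra, Cspg4 and Gpr17). The 10 microglial markers summed to 8.59 to 69.4, 3.36 to 15.3 and 11.5 to 194 CPM, with none called against controls in either comparison. The 5 erythroid markers summed to 3.96 to 13.6, 2.75 to 4.28 and 2.76 to 11.8 CPM, again with none called. The 8 markers of astrocytes and Bergmann glia summed to 409 to 579.6, 339 to 631 and 323 to 741 CPM, with Aqp4 called lower in KO primary tumours.

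The 6 unipolar brush cell markers summed to 102 to 162 CPM in controls, 144 to 172 CPM in KO primary tumours and 165 to 212 CPM in metastases, so that every metastasis lay above every control. Of these markers only Otx2 was called, and it was higher in metastases against controls (155 to 202 against 75.3 to 133 CPM), while Eomes, a defining marker, did not exceed 4.01 CPM in any library. Of the list, 5 of the 6 could be tested, and 4 of those 5 had a log2 change below 0 in that comparison.

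The 7 inhibitory interneuron markers summed to 8.37 to 25.5, 33.3 to 62.6 and 25.1 to 117 CPM. Most of that sum was Pvalb, called higher in both knockout groups (8.11 to 23.4, 33.2 to 61.8 and 25.1 to 116 CPM). The defining genes Gad1 and Gad2 did not exceed 0.913 and 4.72 CPM in any library, Slc32a1 was at 0 in all controls and all metastases, and 3 of the 7 could be tested. The 6 markers of spinal motor and cholinergic neurons summed to 23.8 to 53.8, 42.8 to 72.8 and 37.5 to 73.5 CPM, with Slc5a7 and Isl1 higher and Slc18a3 lower in both knockout groups. Markers of mature granule neurons, 8 in all, summed to 93.6 to 187, 104 to 179 and 91.2 to 160.4 CPM, ranges that overlap, with Cbln1 higher in both knockout groups and Cbln3 lower in metastases. The sums hide changes of single markers. All 8 were tested, and 4 had a log2 change below 0 in KO primary against control primary tumours, with a list median of -1.34.

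The 9 genes did not vary as a block. Across the 13 libraries the Pearson correlation of log2 CPM, a description over libraries that share the group difference, was 0.94 for Snap25 with Sncb, 0.92 for Syp with Sncb and 0.90 for Dnm1 with Sncb and for Syp with Snap25. Stx1a had the lowest values, at 0.11 with Syn1, 0.17 with Vamp2, 0.28 with Syp and 0.35 with Syt1. With the remaining genes it was at 0.45 (Sncb), 0.46 (Dnm1), 0.49 (Snap25) and 0.53 (Rims1). With group means subtracted, Dnm1 with Sncb dropped to 0.39 and Syp with Snap25 to 0.30, whereas Snap25 with Rims1 was at 0.80 and Stx1a with Sncb at 0.70.

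The genes most like the mean standardised profile of the 9 were sought among 11165 others of at least 5 mean CPM. Over 13 libraries among the 8 highest Pearson correlations were those of Neurod4 (0.98), Herc3 (0.98), Rasgef1b (0.98), Clstn3 (0.97), Map6 (0.97), Nfasc (0.96) and Sema6b (0.96). Neurod4, a transcription factor of young neurons, averaged 73.2 ± 23.1, 22.2 ± 4.65 and 23.8 ± 5.87 CPM (SD) in controls, KO primary tumours and metastases. With group means subtracted the closest were Pak1 (0.93), Herc3 (0.91), Clstn3 (0.91), Neurod4 (0.90) and Sgip1 (0.89). For reference, Tubb3 had 0.78, Atoh1 -0.70 and Kmt2d 0.39.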

How the data were processed

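RNA-seq of sorted GFP-positive tumour cells gave 1 table of raw read counts per gene symbol, which the authors deposited with 1 column for each of 13 samples. The tools named in the submitters' processing notes are HTSeq 0.6.1, STAR 2.4 and DESeq2, with the build mm10 and no roles. No source used here gives the annotation release or the strand setting, so antisense overlaps cannot be resolved. TruSeq RNA libraries were made, per the labels' protocols, after papain dissociation, from 1 to 5 M (primary) or 0.1 to 3 M cells (metastasis).

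The 9 genes, the gene lists, the marker lists and the tests were chosen with earlier results of these data known. All 13 libraries were fitted with edgeR 4.0.16 (R 4.3.3) on counts as deposited: filterByExpr (minimum count 10, minimum total 15) kept 22265 of 53653 genes, followed by TMM scaling, quasi-likelihood F tests and Benjamini-Hochberg adjustment over all tested genes. The filter was met by all 9 genes. SE is the fitted coefficient divided by the square root of F. Family shares and log2 ratios to Tubb3 (0.5 added to each count) were compared by exact 2-sided permutation over libraries, adjusted over 9 genes. The fit was tested on simulated data. Symbols were matched to GENCODE for GRCm38 coordinates (1-based) and exon lengths, with all 9 genes matched. Promoters came from RefSeq.

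All 9 genes are named in every comparison, as are the genes called in each list (at most the 6 of smallest p), the paralogs by count or value, and the 8 and 5 genes of most similar profile. Alternatives were DESeq2 1.42.0, upper quartile scaling, no filter, limma 3.58.1 voom with quality weights, the 2 groups alone, replicate blocks, and leaving out single libraries, the 4 libraries with receptor genes above 100 CPM or the 3 controls with Xist above 100 CPM. Libraries of a group differed by far more than counting noise, so each counts as 1. No molecular identifiers are stated, so depth (23.5 to 41.4 M counts) bounds counting error only. Protein sequences were not used here, and a few genes that the naming rule covers are not reported here.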

Additional observations from a re-analysis of the deposited data

Results flagged for a closer look

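Among 27 groups of libraries read, 2 had a library that lay further from the others than Dixon's test allows at the 95% level, where chance gives 1.35 at 1 in 20. Syp was at 121 CPM in control primary 4, the highest of the controls, while the other 4 lay between 70.7 and 80.3 CPM. Leaving out any 1 library kept the fall of Syp in KO primary tumours called (log2 change -1.49 to -1.28, edgeR adjusted p = 3.31e-04 to 0.00490). Sncb was at 1.63 CPM in KO primary 7, the highest of its group, where the other 3 lay between 0.408 and 0.521 CPM. That library also had 723 CPM of olfactory and vomeronasal receptor genes, and the part of this background in its Sncb count was not tested. Without single libraries the log2 change of Sncb in KO primary tumours ran from -4.51 to -3.64 (edgeR adjusted p = 0.00150 to 0.0199).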

How the results depend on the processing

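In KO primary against control primary tumours 4 of the 9 genes were called; voom with quality weights called 8, and the fit without the controls that carry Xist counts called 2 (Syp and Sncb). The count was 6 with DESeq2, 5 with upper quartile scaling, and 4 to 5 when any 1 library was left out. In metastases against controls 5 were called, 2 without the Xist controls, and 4 to 6 when any 1 library was left out. Called directions held in all of these fits. Between metastases and KO primary tumours the count was 0 in every alternative. Family shares called in KO primary tumours (4) and in metastases against controls (6) came to 0 without the high-background libraries, and to 0 and to between 0 and 6 when 1 library was left out. Ratios to Tubb3 called in KO primary tumours (6) came to 0 without those libraries and to between 0 and 7 when 1 was left out. Without the high-background libraries, exact permutation of 4 against 3 libraries gives no p below 0.0571 and of 4 against 2 none below 0.133, so those counts of 0 say nothing about stability.

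Over all genes, calls in KO primary against control primary tumours numbered 653 (257 higher, 396 lower), against 1630 with DESeq2, 3267 with voom (1636 higher), 1427 without the high-background libraries and 138 without the Xist controls. In metastases against controls they numbered 685 (235 higher), against 1675, 3822 (2318 higher), 1274 and 100. Leaving out 1 library gave 277 (without KO primary 4) to 1032 and 369 (without KO metastasis 4) to 1199 calls, both highest without control primary 3. Between metastases and KO primary tumours 0 to 5 genes were called, and 34 with DESeq2.

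Replicate numbers are shared between groups. Deviations of log2 CPM from the group mean correlated at 0.356, 0.488, -0.0047 and 0.675 between same-numbered KO primary and metastasis libraries. Between differently numbered ones they ran from -0.671 to 0.686, so these values cannot decide whether the numbers mark pairs. The numbers were not taken to pair samples. The replicate block used 12 libraries, without control primary 5, whose number no other group has. With it 4, 0 and 4 of the 9 genes were called in the 3 comparisons, and 608, 0 and 565 of all genes. Vamp2 was not called in metastases against controls (log2 change -0.61 against -0.56 in the fit of all 13 libraries, edgeR adjusted p = 0.101). Leaving out control primary 5 alone, with no block, also lost that call. No other call among the 9 changed with the block. Depth limits Dnm1 and Sncb in knockout libraries, which rest on 4 to 123 and 5 to 60 counts.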
